A study of Mus musculus with 19 samples.

Results

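The 9 genes described here encode growth-associated proteins of the axon tip (Gap43, Basp1, Marcks and Marcksl1) and the collapsin response mediator proteins, or CRMPs (Crmp1, Dpysl2, Dpysl3, Dpysl4 and Dpysl5). They were chosen by name: each row of the count tables carries an Ensembl gene identifier, and the rows whose identifier has one of these symbols in the GRCm38 mouse annotation were taken. All 9 symbols were found among the 47069 genes listed, and all 9 passed the filter on low counts that left 15941 genes for testing. RNA-seq was performed on cells sorted from the retinas of E16.5 mouse embryos, with 3 libraries of ipsilateral retinal ganglion cells (iRGCs, whose axons stay on their own side of the brain at the optic chiasm) and 3 of contralateral retinal ganglion cells (cRGCs, whose axons cross the midline). Both populations had the C57/DBA F1 background, pooled male and female embryos and a genotype labelled WT, although all of them carried the Rosa26 CAG-[Stop]-Sun1-GFP reporter together with a Cre driver. In iRGCs the driver was Slc6a4-Cre (the ET33 Sert-Cre line of GENSAT), and in cRGCs it was Pou4f2-Cre, a knock-in into the Brn3b locus, with the ventrotemporal retina dissected away. Cre-driven recombination is permanent, so GFP marks a cell in which the driver was once active and its descendants. The design text calls the replicates biological, and the number of embryos behind each RNA-seq library is not given in the sources used here. The reads assigned to genes ranged from 28193178 to 33638083 per library.

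Growth cones, the motile tips of growing axons, steer by reshaping actin filaments and microtubules under the plasma membrane. Gap43, Basp1 and the MARCKS proteins are lipid-anchored, acidic proteins that bind calmodulin and phosphoinositides at the inner face of the membrane and are substrates of protein kinase C. The CRMPs are cytosolic phosphoproteins that bind tubulin or actin and carry signals from repellent cues such as Sema3A to the cytoskeleton. Both groups are known for their abundance in newborn neurons, including retinal ganglion cells (RGCs) while their axons grow.

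The labels were checked against the driver genes and the markers of the sorted cells. Slc6a4, the serotonin transporter whose regulatory sequences drive Cre in iRGCs, measured 2.06, 33.4 and 116 CPM (counts per 1000000 reads on genes, scaled by the TMM method) in iRGC replicates 1, 2 and 3, and 48.1, 35.4 and 30.5 CPM in cRGC replicates 1, 2 and 3. The populations overlapped, and the level in iRGC replicate 1 was the lowest of the 6 (log2 fold change iRGC over cRGC 0.41, SE 0.93, adjusted p = 0.768, edgeR quasi-likelihood test with Benjamini-Hochberg adjustment). Pou4f2, the RGC transcription factor that drives Cre in cRGCs, measured 74.7, 133 and 98.3 CPM in iRGCs and 191, 196 and 293 CPM in cRGCs (-1.15 on the log2 scale, adjusted p = 0.00424, edgeR). Zic2, the transcription factor known as a determinant of iRGCs and added here with its values known, was the reverse, at 133, 173 and 157 CPM in iRGCs and 57.0, 60.2 and 65.7 CPM in cRGCs (1.34 on the log2 scale, adjusted p = 2.09e-04, edgeR). The iRGC libraries were not equally distant from the cRGCs. Across the tested genes, which are not independent replicates, the log2 CPM of iRGC replicate 3 correlated with those of the cRGC libraries at r of 0.861 to 0.916, whereas iRGC replicate 1 gave 0.769 to 0.818. Each of the 9 genes kept its call, given below, when either of these libraries or any other was left out.

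Markers of young neurons, of RGCs and of other retinal cells moved with the comparison. All 18 young neuron genes were lower in iRGCs (adjusted p below 0.1, edgeR, here and for the other lists), with a summed level of 5925, 7121 and 9987 CPM in iRGCs against 26522, 24408 and 26792 CPM in cRGCs and Map1b as the most abundant. Of 14 RGC markers, 13 were lower, with sums of 1747, 2452 and 3723 CPM in iRGCs against 9749, 8776 and 11121 CPM in cRGCs, and Nefm led this list. Conversely, 17 of 18 retinal progenitor markers were higher in iRGCs, at sums of 11054, 9788 and 9227 CPM against 2041, 3298 and 2634 CPM. Ccnd1 led this list in iRGCs, whereas Pax6, the marker that was not called, led it in cRGCs. All 10 neurogenic precursor markers were higher in iRGCs, at sums of 1862, 2062 and 1790 CPM against 424, 693 and 613 CPM. Hes6 had the most reads over all libraries, while Btg2 had the highest mean in iRGCs and Insm1 in cRGCs. Within iRGCs, replicate 3 had the highest young neuron and RGC sums and the lowest progenitor and precursor sums, and replicate 1 had the lowest young neuron and RGC sums. No marker of these 4 lists was at 0 in all libraries. The part of these cells in the values of the 9 genes was not tested, and in bulk RNA a smaller share of neurons and less RNA per neuron cannot be told apart.

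Of the 9 genes, 8 were lower in iRGCs than in cRGCs at an adjusted p below 0.1, and none was higher. Gap43, Crmp1, Dpysl5 and Dpysl3 differed most, with cRGC levels 3.79, 3.39, 3.16 and 3.01 times those of iRGCs. Marcks alone did not pass the test. The count of 8 lower genes out of 9 compares with 23.1% of the tested genes called lower in iRGCs and 23.3% called higher, and the median log2 fold change of the 9 genes was -1.34 against -0.00 for all tested genes. For the same 8 genes every iRGC library was below every cRGC library, a separation shown by 28.2% of the tested genes. Scaling to the young neuron genes, described below, raises the log2 fold changes of all genes and ended these 8 calls. On that scale 0 of the 9 genes were lower in iRGCs and 4 were higher, beside 78.4% of the tested genes called higher. Summed over the 9 genes, the level was 5099, 5613 and 7426 CPM in iRGC replicates 1, 2 and 3 and 14690, 13836 and 14608 CPM in the cRGC replicates. These genes rank among the most abundant in both populations, since the mean level per kilobase of exon of each lay at or above the 93.4 percentile of the tested genes in iRGCs and the 98.0 percentile in cRGCs. Their counts ran from 3968 reads (Dpysl2 in iRGC replicate 3) to 122249 reads (Dpysl3 in cRGC replicate 3), so counting error is small beside the spread between libraries.

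**Figure D1:**
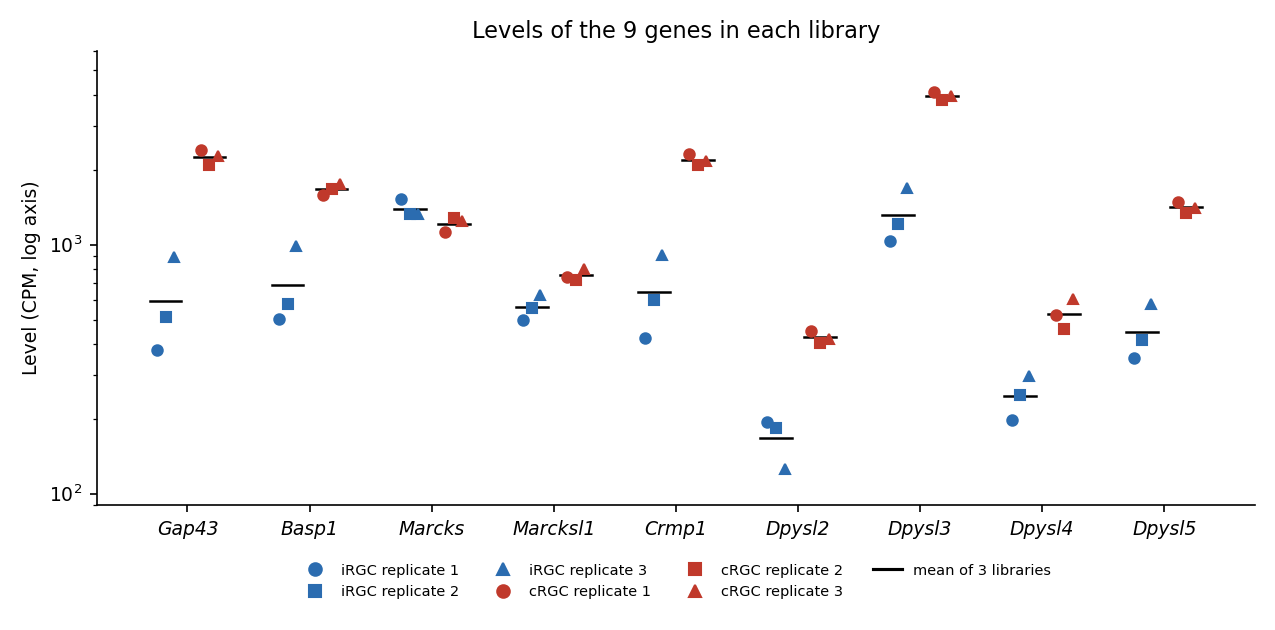
Level of each of the 9 genes in every library, in CPM on a log axis, with iRGC libraries in blue, cRGC libraries in red, a symbol for each replicate number and a black line at the mean of 3 libraries. Every blue point lies below every red point for 8 genes, and for Marcks the order is turned round the iRGC mean being 1391 and the cRGC mean 1212 CPM.

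Gap43 (growth-associated protein 43, neuromodulin; ENSMUSG00000047261, GRCm38 chromosome 16, 42248442 to 42340651, minus strand) is a palmitoylated substrate of protein kinase C and a classical marker of growing axons. Its level was 379, 510 and 895 CPM in iRGC replicates 1, 2 and 3 and 2390, 2094 and 2275 CPM in cRGC replicates 1, 2 and 3. The highest iRGC library was still far below the lowest cRGC library, although the iRGC libraries differed among themselves by 2.36 times, the widest ratio of the 9 genes. The mean was 595 ± 268 CPM against 2253 ± 149 CPM (SD, n = 3 each), and the log2 fold change came to -1.92 (SE 0.28, adjusted p = 7.54e-04, edgeR). Basp1 (brain acid-soluble protein 1, also CAP-23; ENSMUSG00000045763, chromosome 15, 25363277 to 25413764, minus strand) is a myristoylated relative in function of Gap43 that gathers at the same membrane domains. It measured 504, 575 and 982 CPM in iRGCs and 1575, 1674 and 1753 CPM in cRGCs. As for Gap43, iRGC replicate 3 stood above the other iRGC libraries and below all cRGC libraries. For Basp1 the fitted log2 value was -1.28 (SE 0.23, adjusted p = 0.00215, edgeR), with means of 687 ± 258 and 1667 ± 89.4 CPM (SD, n = 3 each).

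Marcks (myristoylated alanine-rich protein kinase C substrate; ENSMUSG00000069662, chromosome 10, 37133375 to 37138920, minus strand) crosslinks actin at the membrane and is made by many cell types besides neurons. Its level was 1522, 1320 and 1330 CPM in iRGCs and 1119, 1274 and 1243 CPM in cRGCs. Every iRGC library was above every cRGC library, but by a narrow margin, and the difference did not pass the test (log2 fold change 0.20, SE 0.11, adjusted p = 0.178, edgeR). Marcksl1 (MARCKS-like 1, also MacMARCKS; ENSMUSG00000047945, chromosome 4, 129513581 to 129515985, plus strand) is its shorter relative and shares the effector domain that binds calmodulin and actin. It measured 497, 554 and 629 CPM in iRGCs and 742, 722 and 800 CPM in cRGCs. The groups did not overlap, and the difference was the smallest of the 8 that passed (log2 fold change -0.43, SE 0.11, adjusted p = 0.0156, edgeR). A processed copy, Marcksl1-ps4, was listed at 0 to 1.73 CPM, and reads that Marcksl1 shares with it could not be assigned with certainty.

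Crmp1 (ENSMUSG00000029121, chromosome 5, 37241940 to 37292133, plus strand) mediates the collapse of growth cones by Sema3A. Its level was 422, 598 and 910 CPM in iRGC replicates 1, 2 and 3 and 2302, 2084 and 2166 CPM in the cRGC replicates. The cRGC libraries lay close together and the iRGC libraries spread over 2.15 times, with replicate 3 highest (log2 fold change -1.76, SE 0.24, adjusted p = 6.21e-04, edgeR). Dpysl2, better known as CRMP2 (ENSMUSG00000022048, chromosome 14, 66802864 to 66868688, minus strand), binds tubulin dimers and promotes microtubule assembly until it is phosphorylated by Cdk5 or Gsk3. It measured 195, 184 and 125 CPM in iRGCs and 450, 403 and 419 CPM in cRGCs. Here iRGC replicate 3 was the lowest library, whereas for 7 of the 9 genes (Gap43, Basp1, Marcksl1, Crmp1, Dpysl3, Dpysl4 and Dpysl5) it was the highest of the iRGC libraries. The fitted log2 value of Dpysl2 came to -1.34 (SE 0.16, adjusted p = 4.01e-04, edgeR). Dpysl3 (CRMP4; ENSMUSG00000024501, chromosome 18, minus strand) bundles actin filaments and was the most abundant of the 9 genes in CPM in cRGCs. Its level was 1033, 1211 and 1684 CPM in iRGCs and 4108, 3789 and 3945 CPM in cRGCs. The gap between the groups exceeded the spread in either (log2 fold change -1.59, SE 0.17, adjusted p = 2.58e-04, edgeR).

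Dpysl4 (CRMP3; ENSMUSG00000025478, chromosome 7, 139086001 to 139102704, plus strand) is a less abundant member of the family. It measured 198, 248 and 296 CPM in iRGCs and 520, 459 and 602 CPM in cRGCs. The groups were apart, and among the CRMP genes this was the smallest difference (log2 fold change -1.09, SE 0.16, adjusted p = 9.26e-04, edgeR). Dpysl5 (CRMP5; ENSMUSG00000029168, chromosome 5, 30711564 to 30799375, plus strand), the most divergent CRMP in sequence, regulates dendrite and axon growth. Its level was 350, 413 and 575 CPM in iRGCs and 1485, 1337 and 1404 CPM in cRGCs. Every iRGC library lay far below the cRGC libraries (log2 fold change -1.66, SE 0.18, adjusted p = 2.45e-04, edgeR).

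RefSeq start sites of GRCm38.p6 were used for 4 of the 9 genes, Basp1, Crmp1 (with 2 starts), Dpysl5 and Marcksl1, and the 250 bases before each start were read. Gap43, Marcks, Dpysl2, Dpysl3 and Dpysl4 had no entry in the set of start sites used here. Dpysl5 and Basp1 are shown as the CRMP gene and the growth-associated gene with a large difference between populations and a start that coincides with the annotated gene start. Capitals mark the GC box GGGCGG, the binding sequence of Sp1-type factors, read on either strand. The Dpysl5 window is chr5:30711314-30711563, plus strand, and the Basp1 window is chr15:25413765-25414014, minus strand, both written 5′ to 3′.
Dpysl5: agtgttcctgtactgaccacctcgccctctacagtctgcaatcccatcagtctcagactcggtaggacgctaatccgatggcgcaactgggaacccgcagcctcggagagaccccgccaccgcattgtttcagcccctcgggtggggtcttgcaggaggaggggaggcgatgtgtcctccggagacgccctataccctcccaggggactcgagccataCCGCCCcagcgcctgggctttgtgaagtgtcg
Basp1: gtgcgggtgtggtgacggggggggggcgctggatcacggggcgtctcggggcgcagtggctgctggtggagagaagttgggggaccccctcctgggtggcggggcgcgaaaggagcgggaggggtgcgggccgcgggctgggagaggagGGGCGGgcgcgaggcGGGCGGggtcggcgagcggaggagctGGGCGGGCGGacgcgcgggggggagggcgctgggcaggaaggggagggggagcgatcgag
The Dpysl5 window held 1 GC box and 62.8% G and C, and the Basp1 window held 4 GC boxes, which may overlap, and 78.8% G and C. In G and C content these lay at the 78.3 and 98.3 percentiles of all windows. The starts of Crmp1 had 5 and 2 GC boxes, and Marcksl1 had none but 1 CCAAT box (CCAAT). Among 32851 windows of the same length before RefSeq starts, 32.7% held a GC box and 33.8% a CCAAT box. The TATA box TATAAA (12.4% of windows), the E-boxes CATCTG (14.4%) and CAGCTG (13%) and the homeodomain core TAATTA (4.84%), each searched on both strands, were not found in any of the 5 windows. A match or its absence describes the letters of the window and not the binding of a factor.

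Levels of different genes were compared as CPM per kilobase of exon, and the order holds for that length alone. The joined exons of Crmp1 measured 7046 bases and its longest coding transcript 3051, and those of Dpysl4 5983 and 3552. The longest coding transcript would raise these genes relative to Dpysl2, Marcks and Marcksl1, whose length is the same either way. The order with that length was not worked out. In cRGCs the order was Gap43 (1479 ± 97.9), Basp1 (830 ± 44.5), Dpysl3 (597 ± 24.2), Marcksl1 (470 ± 25.0), Crmp1 (310 ± 15.7), Marcks (299 ± 20.3), Dpysl5 (191 ± 10.0), Dpysl2 (93.8 ± 5.26) and Dpysl4 (88.1 ± 11.9), as means with SD over 3 libraries. With this length, only the neighbouring pairs Crmp1 and Marcks, and Dpysl2 and Dpysl4, overlapped in their cRGC libraries. In iRGCs the order was flatter and less certain. Gap43 (390 ± 176), Marcksl1 (349 ± 41.1), Marcks (344 ± 28.0) and Basp1 (342 ± 129) each overlapped the next gene in the order, the last of them Dpysl3 (198 ± 50.9). Per kilobase of joined exons, every iRGC library of Dpysl3 lay above those of Crmp1 (91.3 ± 35.03). After it, Crmp1, Dpysl5 (60.5 ± 15.8), Dpysl4 (41.3 ± 8.12) and Dpysl2 (37.1 ± 8.27) overlapped from one to the next. The MARCKS genes, of middle rank in cRGCs, therefore stood beside Gap43 and Basp1 in iRGCs.

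Ratios within a library do not depend on how libraries are scaled, and 4 pairs of related genes were compared by a two-sided exact permutation test, for which 3 against 3 libraries cannot give a p below 0.1. Basp1 over Gap43, per kilobase, had a log2 ratio of 0.01, -0.23 and -0.27 in iRGC replicates 1, 2 and 3 and -1.002, -0.72 and -0.78 in the cRGC replicates. Basp1 was thus nearly level with Gap43 in iRGCs (a mean ratio of 0.895) and lower than it in cRGCs (0.561), without overlap between populations (exact permutation p = 0.1, adjusted p = 0.2 over the 4 ratios). For Marcksl1 over Marcks the log2 ratio was -0.28, 0.08 and 0.25 in iRGCs and 0.74, 0.52 and 0.70 in cRGCs, again without overlap (exact permutation p = 0.1, adjusted p = 0.2). The ratios to Dpysl2 overlapped and were widely spread in iRGCs. Dpysl3 over Dpysl2 gave 1.86, 2.17 and 3.20 in iRGCs, with values on both sides of 2.64, 2.69 and 2.69 in cRGCs (exact permutation p = 0.7, adjusted p = 0.7). Dpysl5 over Dpysl2 gave 0.14, 0.46 and 1.49 against 1.02, 1.02 and 1.04 (exact permutation p = 0.4, adjusted p = 0.533).

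The summed level of the 5 CRMP genes was 340, 406 and 539 CPM per kilobase in iRGCs and 1336, 1216 and 1288 in cRGCs, and the share of each gene in that sum was compared by the same exact test. The sum and the size of each share depend on the length used, here that of all exons joined. The share of Dpysl3 was 46.1 ± 1.08% of the summed counts per kilobase in iRGCs and 46.7 ± 0.416% in cRGCs (SD, n = 3 each; two-sided exact permutation p = 0.5, difference -0.546 percentage points). The sign of this difference turned with the length used, to 0.0141 without division by length and 0.303 with the longest coding transcript. Leaving out 1 library moved it between -1.12 (without iRGC replicate 3) and -0.0435 (without iRGC replicate 2). Dpysl4 took the larger share in iRGCs, at 9.75, 10.2 and 9.16% against 6.50, 6.31 and 7.81% in cRGCs, without overlap (exact permutation p = 0.1, the smallest possible, adjusted p = 0.25 over the 5 shares). Dpysl5 was apart in the other direction by less than 1 percentage point, 14.1 ± 0.363% against 14.9 ± 0.144% (exact permutation p = 0.1, adjusted p = 0.25). Crmp1 varied among iRGC libraries from 17.6 to 24.0%, against a cRGC mean of 24.2% (exact permutation p = 0.2, adjusted p = 0.333). The populations overlapped, with 23.96% in iRGC replicate 3 and 23.86% in cRGC replicate 3. The difference of -3.39 percentage points became -1.79 without iRGC replicate 1. It was -3.36 without division by length and -4.58 with the longest coding transcript (exact permutation p = 0.1 for each). Dpysl2 varied most, at 12.7, 10.0 and 5.14% in iRGC replicates 1, 2 and 3 against 7.45, 7.32 and 7.20% in cRGCs (exact permutation p = 0.4, adjusted p = 0.5). Its difference of 1.95 percentage points became 0.25 without iRGC replicate 1 and 4.01 without iRGC replicate 3. In iRGC replicate 3 the shares of Crmp1 and Dpysl3 lay within 1 percentage point of the cRGC means, whereas that of Dpysl2 lay below every cRGC library.

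**Figure D2:**
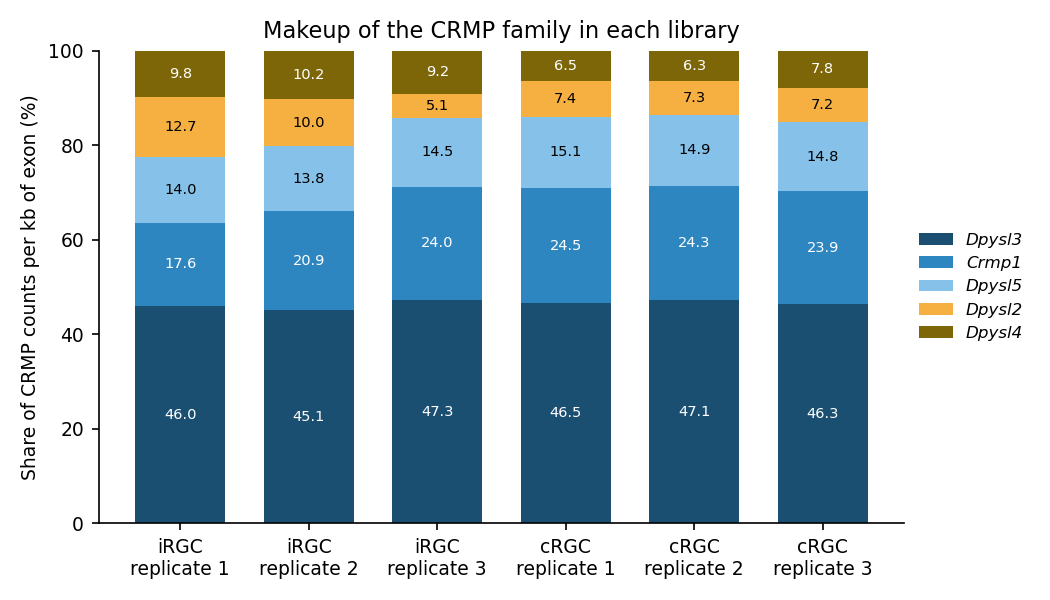
Share of each CRMP gene in the summed counts per kilobase of exon of the 5 CRMP genes, in percent, 1 bar per library. The length is that of all annotated exons of a gene joined, and the shares depend on it. Dpysl3 fills 45.1 to 47.3% of every bar, Dpysl2 falls to 5.14% in iRGC replicate 3 and Dpysl4 takes 9.16 to 10.2% in iRGCs against 6.31 to 7.81% in cRGCs.

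The 9 genes were next set against the genes of young neurons. When the libraries were scaled to the geometric mean count of the 18 young neuron genes in place of TMM, the median log2 fold change of all tested genes moved by 1.85, to 1.84. On this scale Crmp1 (log2 fold change -0.02, SE 0.20), Gap43 (-0.20, SE 0.21), Dpysl5 (0.12, SE 0.21), Dpysl3 (0.19, SE 0.19) and Dpysl2 (0.58, SE 0.31) did not pass the test, with adjusted p between 0.101 and 0.935 (edgeR). The other 4 were higher in iRGCs, namely Marcks by 2.07 (SE 0.26), Marcksl1 by 1.39 (SE 0.23), Dpysl4 by 0.71 (SE 0.23) and Basp1 by 0.47 (SE 0.20) on the log2 scale. Scaled in this way, 78.4% of the tested genes were higher in iRGCs and 0.408% were lower, beside 4 and 0 of the 9 genes. Of the 14 RGC markers, 1 was higher and 1 lower on this scale, with a median log2 fold change of -0.24. All 18 retinal progenitor and all 10 neurogenic precursor markers were higher. Relative to the young neuron genes, Crmp1 stood at log2 values of 0.98, 1.18 and 1.21 in iRGCs and 1.19, 1.12 and 1.12 in cRGCs, which overlap. Gap43 stood at 0.82, 0.96 and 1.19 in iRGCs and 1.25, 1.13 and 1.19 in cRGCs, also overlapping. Marcks was far apart, at 2.83, 2.33 and 1.76 against 0.15, 0.41 and 0.32. Dpysl2 ranged most widely, at -0.14, -0.52 and -1.65 in iRGC replicates 1, 2 and 3, on both sides of the cRGC values of -1.16, -1.25 and -1.25.

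**Figure D3:**
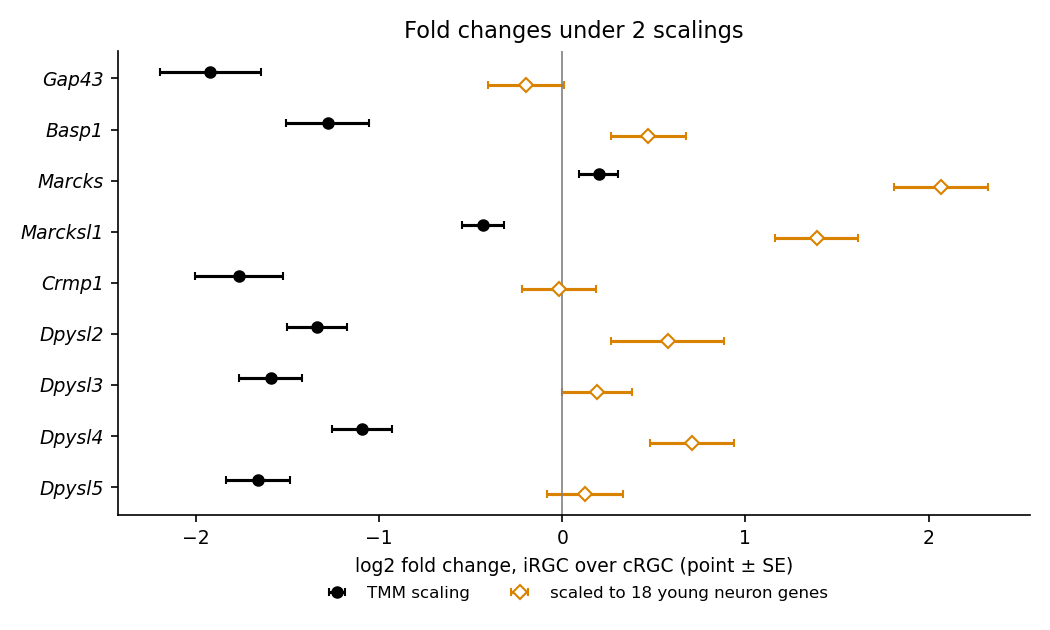
Log2 fold change of iRGC over cRGC for each of the 9 genes with its SE, after TMM scaling (filled circles) and after scaling to 18 young neuron genes (open diamonds). The TMM values of 8 genes lie between -1.92 and -0.43, and the neuron-scaled values of Gap43, Crmp1, Dpysl3 and Dpysl5 lie between -0.20 and 0.19.

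**Figure D4:**
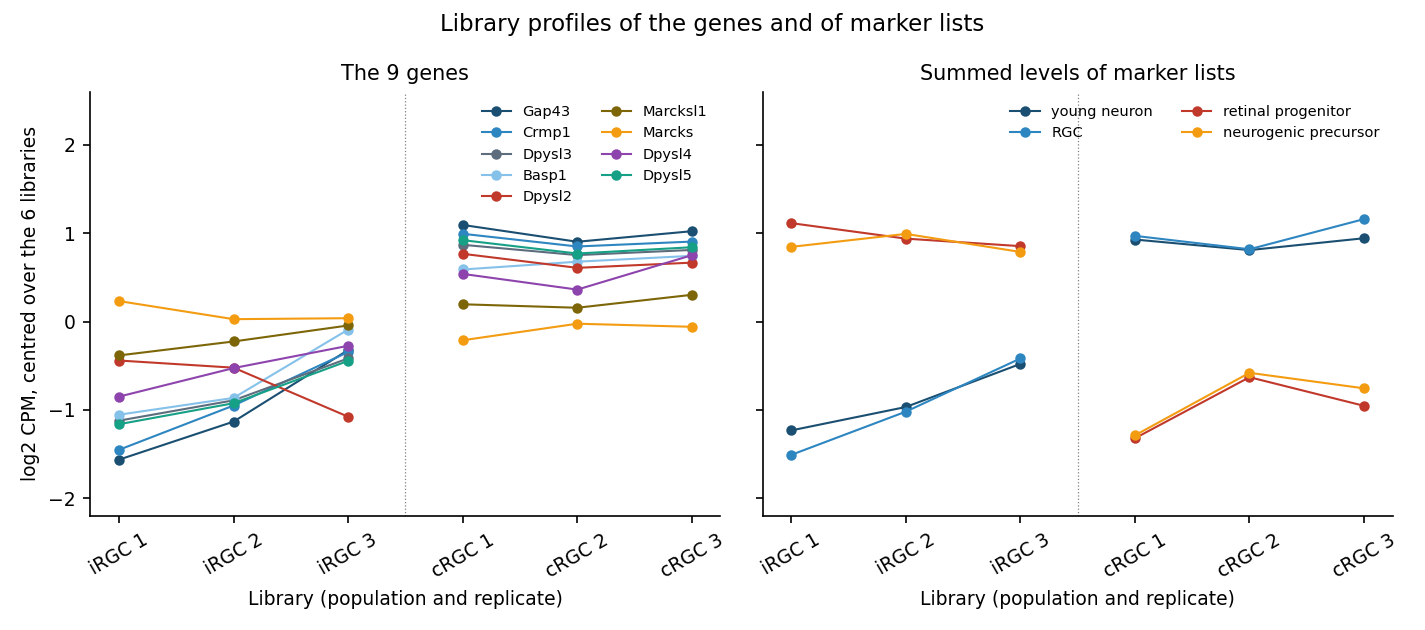
Left, log2 CPM of the 9 genes in the 6 libraries, each centred on its own mean. Right, the same for the summed CPM of 4 marker lists. Lines join the points of 1 gene or list and imply no order of replicates. In iRGC replicate 3, Dpysl2 lies lowest of the 9 genes on the left, while the young neuron and RGC sums on the right are at their highest among iRGCs.

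To place each gene among all others, the 3 genes were found whose centred log2 CPM differed least from it over the 6 libraries, by the root mean square difference among 10274 genes with a mean of at least 10 CPM. Closest to Gap43 were Sez6l2 (0.03), Prkar1b (0.06), a regulatory subunit of protein kinase A, and Stmn4 (0.06), a microtubule-destabilizing stathmin. Basp1 was closest to the receptor phosphatase gene Ptpro (0.06), the actin-sequestering Tmsb10 (0.06) and the tubulin gene Tuba1a (0.07). Dpysl3 and Dpysl5 were among the nearest of each other (0.04), with Cdk5r1, the Cdk5 activator p35, nearest to Dpysl3 (0.03) and Lmtk3 nearest to Dpysl5 (0.03). Nyap1 was also near Dpysl3 (0.04) and Tspan17 near Dpysl5 (0.04). Crmp1 lay nearest Atcay (0.04), Fam155a (0.04) and Nt5dc3 (0.06), and Dpysl4 nearest Slc12a9 (0.05), Chrna4 (0.06) and Trp53i11 (0.06). Marcks was followed by Ppp2r5e (0.03), Ndufv2 (0.03) and Tvp23b (0.04), and Marcksl1 by Riok3 (0.02), the Arp2/3 subunit gene Actr3 (0.03) and Ogdhl (0.04). Dpysl2 had the least close neighbours, with the calcium channel gene Cacna1c at 0.10, 5330434G04Rik at 0.14 and Stard9 at 0.15.

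The other genes through which these proteins act were read from 4 lists of 92 genes, all of which were tested. Of these, 54 were lower in iRGCs, 10 were higher and 28 did not pass the test (58.7% lower and 10.9% higher), beside 23.1% of all tested genes lower and 23.3% higher. Their median log2 fold change was -0.54 against -1.34 for the 9 genes. Among 19 kinases and phosphatases that act on CRMPs, 11 were lower and 3 higher (median -0.40). Cdk5r2, the Cdk5 activator p39, measured 16.9, 19.0 and 37.9 CPM in iRGCs and 93.3, 102 and 100 CPM in cRGCs, and its log2 fold change was -1.999 (SE 0.28). Camk2a, a calcium-dependent kinase gene, had a log2 fold change of -2.29 (SE 0.30) at a low level, 2.63 to 5.52 CPM in iRGCs and 19.5 to 21.6 CPM in cRGCs. In the other direction, the phosphatase gene Ppp1cc (0.60, SE 0.20) and the kinase gene Rock2 (0.49, SE 0.13) were higher in iRGCs. Of 17 CRMP partners and genes of the Sema3A pathway, 9 were lower and 3 higher (median -0.54). Cacna1b, the N-type calcium channel that CRMP2 binds, measured 65.5, 81.5 and 98.8 CPM in iRGCs and 410, 353 and 342 CPM in cRGCs (-2.17, SE 0.16). L1cam, an adhesion molecule whose endocytosis involves CRMP2, gave -2.10 (SE 0.25), whereas the endocytic adaptor gene Numb (0.68, SE 0.18) and Cyfip1 of the WAVE complex (0.63, SE 0.15) were higher.

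Of 17 genes for protein kinase C, calmodulin and the enzymes that add or remove lipid anchors, 10 were lower in iRGCs and none was higher (median -0.75). Prkcb, a conventional protein kinase C, measured 17.0, 24.8 and 37.8 CPM in iRGCs and 117, 100 and 106 CPM in cRGCs, or -2.02 on the log2 scale (SE 0.26). Gprin1, which promotes neurite growth with the G protein Go, gave -1.63 (SE 0.20). Among 39 genes of the growth cone actin and membrane skeleton, 24 were lower and 4 higher (median -0.53). The actin-binding LIM protein genes Ablim3 (-2.35, SE 0.44) and Ablim1 (-1.86, SE 0.19) led the lower side. Ezr and Msn, which encode the membrane-to-actin linkers ezrin and moesin, led the higher side. Ezr measured 55.2, 42.0 and 43.8 CPM in iRGCs and 4.38, 11.98 and 10.3 CPM in cRGCs (2.40, SE 0.34), and Msn gave 1.37 (SE 0.16). Ezrin and moesin are also abundant in neural progenitors. In the young neuron list, Myt1l (-2.22, SE 0.41) and Mapt, the tau gene (-2.11, SE 0.28), were lowest in iRGCs relative to cRGCs. All the list genes named here had an adjusted p of 0.0444 or lower (edgeR, Benjamini-Hochberg), and their libraries did not overlap between populations. Scaled to the young neuron genes, which raises the log2 fold changes of all genes, 74 of the 92 were higher in iRGCs and 1 was lower, beside 78.4% and 0.408% of all tested genes.

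**Figure D5:**
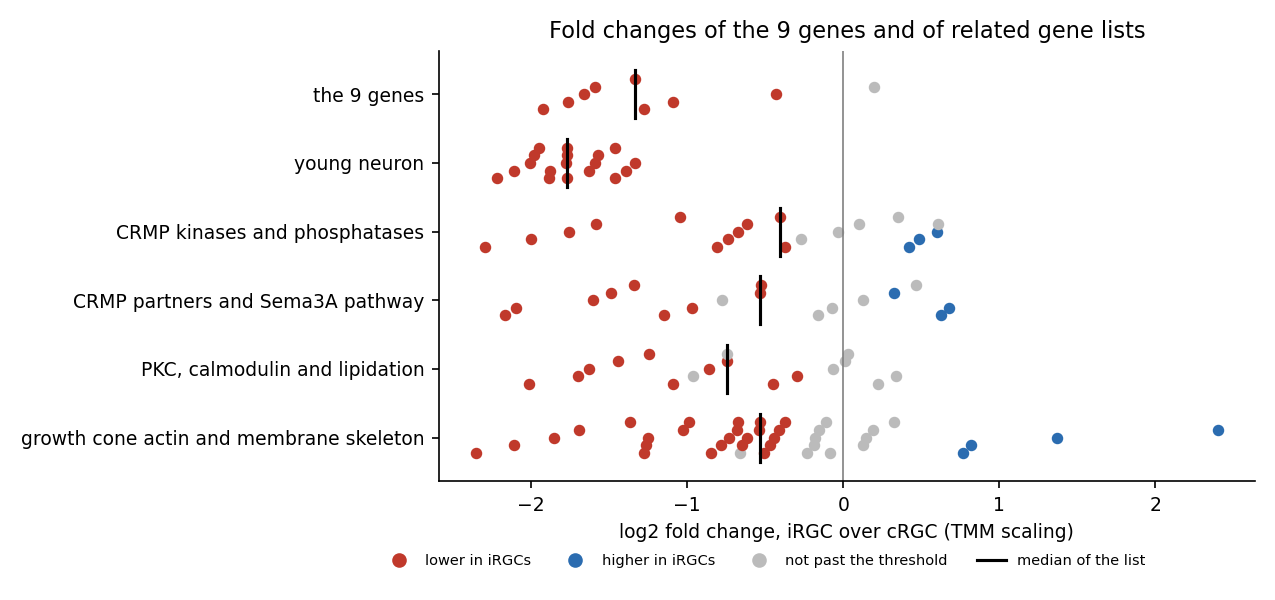
Log2 fold change of iRGC over cRGC (TMM scaling) of every gene in the 9-gene set, the young neuron list and 4 related lists, with 1 point per gene, red for lower and blue for higher at adjusted p below 0.1, grey for neither, and a black line at each median. The median of the 9 genes (-1.34) lies between that of the young neuron list (-1.77) and those of the other lists (-0.75 to -0.40).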

How the data were processed

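The authors aligned the reads to mm10, counted reads per gene on the Ensembl annotation of GRCm38 and deposited raw, unnormalized counts, 1 table per library. The submitters' processing notes name HISAT2 2.1.0, HTSeq 0.11.1 and DESeq2 1.26.0. The strand setting of the counting is not given in the sources used here, and the exons of the 9 genes share no bases with other genes. Symbols and exon lengths came from GENCODE M21 for 46574 of 47069 identifiers. Rows that name no gene were kept out. Reads outside genes came to 12.3% of those with a unique alignment in iRGC replicate 3 and to 18.4 to 23.2% in the other libraries. The 13 ATAC-seq samples were not analysed here.

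After filtering by expression and TMM scaling, iRGCs and cRGCs (n = 3 each) were compared in edgeR 4.0.16 (R 4.3.3) by the quasi-likelihood F test, with Benjamini-Hochberg adjustment over 15941 genes and a threshold of 0.1. Ratios and shares within libraries were compared by exact permutation tests. Standard errors were taken as the log2 fold change over the square root of F. On simulated counts of 15397 genes with 200 changed, equally up and down, this comparison recovered 86% of 4-fold and 59% of 2-fold changes, and 7.64% of calls were false. In the data 7395 genes were called, so these rates hold for the simulated setting alone. Alternatives were DESeq2 1.42.0, limma 3.58.1 (voom), other scalings, filters, thresholds and lengths, a replicate block and leaving out each library. The 9 genes and all lists were chosen with earlier results of these data known. Beside the 9 genes, Slc6a4 and Pou4f2, the text names the most abundant gene of each marker list by reads over all libraries. For some lists the most abundant gene of a population is named as well. Also named are the 3 nearest patterns of each gene. In each pathway list and direction these are joined by the 2 genes with the largest change among those called, with a mean of at least 10 CPM and no overlap. Figures were drawn with Python 3.11.15 and matplotlib 3.10.9.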

Additional observations from a re-analysis of the deposited data

How the results depend on the processing

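All 8 genes called lower in iRGCs stayed called in the same direction under 15 alternatives (other size factors, DESeq2 with and without a prior, limma voom, other filters, protein-coding genes alone, a replicate block and each library left out), and Marcks stayed above 0 and outside the threshold. Leaving out 1 library at a time gave 8 to 8 lower and 0 to 0 higher of the 9 genes, 6303 to 7603 genes called in all, and 50 to 59 lower and 8 to 11 higher of the 92 pathway genes. The Gap43 log2 fold change ran from -2.35 without iRGC replicate 3 to -1.68 without iRGC replicate 1. Scaling to the young neuron genes changed the call of each of the 9 genes: 12557 genes were called, 0 of the 9 genes were lower and 4 higher, 1 pathway gene was lower and 74 higher, and the log2 fold changes became -0.20 for Gap43, 0.47 for Basp1, 2.07 for Marcks, 1.39 for Marcksl1, -0.0196 for Crmp1, 0.58 for Dpysl2, 0.19 for Dpysl3, 0.71 for Dpysl4 and 0.12 for Dpysl5, as its construction sets that list to about 0. Requiring a log2 fold change beyond 1 left 3688 genes, 7 of the 9, and 26 lower and 2 higher pathway genes. The difference in the Dpysl3 share (iRGC minus cRGC) changed from -0.546 to 0.0141 percentage points without division by length and to 0.303 with the longest coding transcript, and leaving out 1 library moved it between -1.12 (without iRGC replicate 3) and -0.0435 (without iRGC replicate 2). The log2 ratio difference of Dpysl3 over Dpysl2 was -0.26 and ran from -0.66 without iRGC replicate 3 to 0.0153 without iRGC replicate 1, past 0. The log2 ratio difference of Dpysl5 over Dpysl2, -0.33, became -0.73 without iRGC replicate 3 and -0.0487 without iRGC replicate 1. The Dpysl2 share difference of 1.95 percentage points became 4.01 without iRGC replicate 3 and 0.25 without iRGC replicate 1, and the Crmp1 share difference of -3.39 became -4.95 and -1.79. The exact test of 3 libraries or fewer against 3 cannot give a p below 0.1, so it could call none of these. With the replicate number as a block, 8 of the 9 genes were lower, 6751 genes were called in all, 53 pathway genes were lower and 9 higher. Same-numbered libraries did not deviate together (r of -0.0110, -0.0125 and -0.0484), and libraries of different number gave r of -0.0144 to 0.0335. With 3 libraries per population, such values cannot show whether libraries of the same number were collected or prepared together.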

Other observations

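Other cell types were followed in the same libraries by marker lists. Of 8 amacrine markers, 7 were higher in iRGCs, at sums of 383, 348 and 477 CPM against 135, 179 and 124 CPM in cRGCs. By mean CPM, Tfap2b led this list in iRGCs and Gad2 in cRGCs. All 6 photoreceptor precursor genes tested, of 7, were higher, at 1068, 830 and 840 CPM against 154, 274 and 202 CPM, led by Neurod1, a proneural-type factor. Of 5 horizontal cell genes, 1 was higher and none lower, and Onecut2, the most abundant, is also made by RGCs. In the astrocyte and optic stalk list 3 of 6 genes were tested, 1 higher (Slc1a3, also a progenitor gene) and 1 lower, and the astrocyte gene Gfap was at most 0.189 CPM.

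The summed levels of the endothelial, mural and erythroid lists were highest in iRGC replicate 2. All 5 endothelial genes tested, of 8, were higher in iRGCs, at sums of 443, 580 and 433 CPM against 87.2, 108 and 70.3 CPM. Most of that sum was Kdr, which retinal progenitors also make, at 366, 320 and 418 CPM in iRGCs, while Pecam1 measured 9.65, 53.0 and 0.284 CPM. Of 5 mural genes tested, of 7, 3 were higher, at 135, 275 and 106 CPM against 20.8, 31.2 and 22.8 CPM, led by Notch3, another progenitor gene, and the pericyte gene Rgs5 measured 3.76, 93.8 and 2.24 CPM in iRGCs. All 4 erythroid genes tested, of 7, were higher, at 12.2, 92.7 and 15.2 CPM against 0, 5.11 and 0.290 CPM, led by Hbb-bs. Of 5 microglial genes tested, of 7, 3 were higher, at 13.1, 21.2 and 15.8 CPM against 0.654, 4.18 and 1.45 CPM, led by Csf1r in iRGCs. In the fibroblast list 2 of 7 genes were tested and 1 was higher (Col1a2). In the pigment epithelium list 4 of 6 were tested and none was called, with Mitf the most abundant in cRGCs and Dct in iRGCs. None of 5 lens genes was tested, with Cryaa at most 4.91 CPM. Lum, of the fibroblast list, was at 0 in every library. Pecam1, Rgs5 and Gfap were named after their values were seen.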
